A study of Rattus norvegicus with 15 samples.

Results

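Cubn, Folr1 and Anpep encode proteins of the apical membrane of the renal proximal tubule, and their transcripts were followed in rats given cisplatin, a platinum drug that injures this segment. The genes were taken by their symbols in the annotation of the array platform, where each had 1 probe, so that 3 of the 401 genes with 1 named probe, among 26857 probes in the files, are described. Cisplatin or the same volume of saline was injected intraperitoneally into male Wistar/ST rats of 8 weeks. The arrays formed 5 groups of 3: isolated proximal tubules after saline, after 2 mg/kg cisplatin and after 10 mg/kg cisplatin, and whole kidneys after 10 mg/kg cisplatin and after saline. The tubules had been picked under a microscope, and how long after injection the tissue was taken is not stated in the labels. Digoxigenin-labelled cRNA was measured on 1-colour chemiluminescent arrays, so every value is the signal of a transcript and not of a protein.

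The proximal tubule takes back filtered proteins, vitamins and peptides across its brush border. Cubn encodes cubilin, a large receptor that has no membrane-spanning part of its own, is held at the surface by amnionless and works with megalin in the endocytosis of albumin, transferrin, apolipoprotein A-I and vitamin D binding protein. Folr1 encodes folate receptor alpha, a glycolipid-anchored receptor through which filtered folate is recovered. Anpep encodes aminopeptidase N, also called CD13, a zinc peptidase of the microvillus membrane that removes amino acids from the N-terminal end of small peptides, which then enter the cell through amino acid carriers.

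All 3 genes fell at the higher dose, but no promoter sequence of Folr1 was available. The promoter sequences of Cubn and Anpep are shown. They were taken from RefSeq on assembly GRCr8, where both genes lie on the minus strand, and each runs 5′ to 3′ over the 250 bases before the annotated start, chr17:81501695-81501944 for Cubn and chr1:143195102-143195351 for Anpep. The deposited files hold no coordinates. A set of 4 short motifs were searched on both strands: GTTAAT, part of the site of the tubular factor HNF1, CAAAGT, part of the site of HNF4A, TATAAA, and GGGCGG, the GC box. Capitals mark the matches, which do not overlap each other.
Cubn promoter: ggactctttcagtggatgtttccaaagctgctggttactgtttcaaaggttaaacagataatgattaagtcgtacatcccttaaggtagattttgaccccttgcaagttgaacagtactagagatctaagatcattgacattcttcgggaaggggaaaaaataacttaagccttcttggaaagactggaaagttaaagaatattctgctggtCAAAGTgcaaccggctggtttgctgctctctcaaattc
Anpep promoter: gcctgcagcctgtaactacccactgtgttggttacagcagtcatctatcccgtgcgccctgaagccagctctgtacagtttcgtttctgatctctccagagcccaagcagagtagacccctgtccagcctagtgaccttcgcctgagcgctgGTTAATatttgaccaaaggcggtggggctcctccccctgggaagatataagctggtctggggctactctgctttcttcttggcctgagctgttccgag
The Cubn window held CAAAGT once, beginning 38 bases before the start, and the Anpep window held GTTAAT once, beginning 98 bases before it. CAAAGT was present in 12.9% and GTTAAT in 6.45% of 33469 RefSeq promoter windows of the same length. TATAAA, found in 12.9% of windows, and GGGCGG, found in 30.5%, were in neither sequence. A match is a description of these letters and does not show that a factor binds there.

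Array medians ran from 201 to 470 before scaling, between 26207 and 26547 probes were listed per array, and no pair of arrays was identical. Saline kidney replicate 3 had the lowest mean correlation to the other arrays, at 0.819, and the next lowest was 0.827. In saline tubules 8 of 15 named proximal tubule markers were higher than in saline kidneys and 1 was lower, where 16.2% of all named genes were higher. The median log2 difference of the 15 was 1.62, against 0.23 over all named genes, and the difference was negative for 4. Slc5a2, the SGLT2 gene, was higher by 8.74 ± 0.69 (SE) on the log2 scale, far above that median, and was named after its value was seen. No marker of glomerulus, thick ascending limb, distal tubule, collecting duct, endothelium, stroma or red blood cells had a named probe, so the purity of the tubules could not be checked against them. All named genes belong to the 1219 probes of the authors' deposited series table, and how the authors chose these probes is not stated in the labels. Of the 401 named genes 10.2% had a log2 change of less than 0.5 in either direction in tubules at 10 mg/kg, against 52.4% of all 26601 probes tested, while at 2 mg/kg the shares were 68.1% and 69.4%. Whether these samples were used in that choice is not known, so a call of a named gene at the higher dose may not be independent evidence of its direction.

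Levels are given as log2 signals after quantile normalization over the 15 arrays. Cubn stood at 13.00, 13.23 and 14.24 in saline tubules, at 13.94, 14.08 and 13.32 in 2 mg/kg tubules, and at 10.98, 10.41 and 11.32 in 10 mg/kg tubules. In whole kidneys it stood at 9.65, 8.86 and 9.01 after 10 mg/kg, against 13.10, 13.30 and 12.91 after saline. Each of the 6 arrays after 10 mg/kg lay below all 9 others, and the 10 mg/kg kidneys lay below the 10 mg/kg tubules. By group mean the order was 2 mg/kg tubules, saline tubules and saline kidneys, whose neighbours overlapped, then 10 mg/kg tubules and last 10 mg/kg kidneys, which overlapped with no neighbour. The Cubn signal fell at the 60.3 to 69.8 percentile of its arrays in 10 mg/kg kidneys, and at the 93.3 to 94.7 percentile in saline kidneys. No background was measured, so it is not known how far the lowest signals stand above it and every fold here is a ratio of signals.

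Folr1 was bright throughout. It stood at 14.23, 15.29 and 15.30 in saline tubules, at 15.03, 14.83 and 14.94 in 2 mg/kg tubules, and at 13.34, 12.85 and 13.56 in 10 mg/kg tubules. In whole kidneys it stood at 12.14, 12.14 and 11.56 after 10 mg/kg, against 14.37, 14.40 and 14.54 after saline. The order was saline tubules, 2 mg/kg tubules, saline kidneys, 10 mg/kg tubules and 10 mg/kg kidneys, and among neighbours in it only saline and 2 mg/kg tubules overlapped. Saline tubule replicate 1 was the lowest of its group and lay below the saline kidneys.

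Anpep had another order, with saline kidneys at the top. In tubules it stood at 13.20, 13.38 and 14.07 after saline, at 13.78, 14.41 and 12.89 after 2 mg/kg, and at 10.66, 10.55 and 11.19 after 10 mg/kg. In whole kidneys it stood at 12.99, 13.48 and 13.49 after 10 mg/kg, against 15.15, 15.52 and 15.25 after saline. Saline tubules and 10 mg/kg kidneys overlapped, as did saline and 2 mg/kg tubules. The 10 mg/kg tubules lay below every other array, and the saline kidneys above every other array. The spread of 2 mg/kg tubules was the widest of the 5 Anpep groups, with an SD of 0.76.

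**Figure D1:**
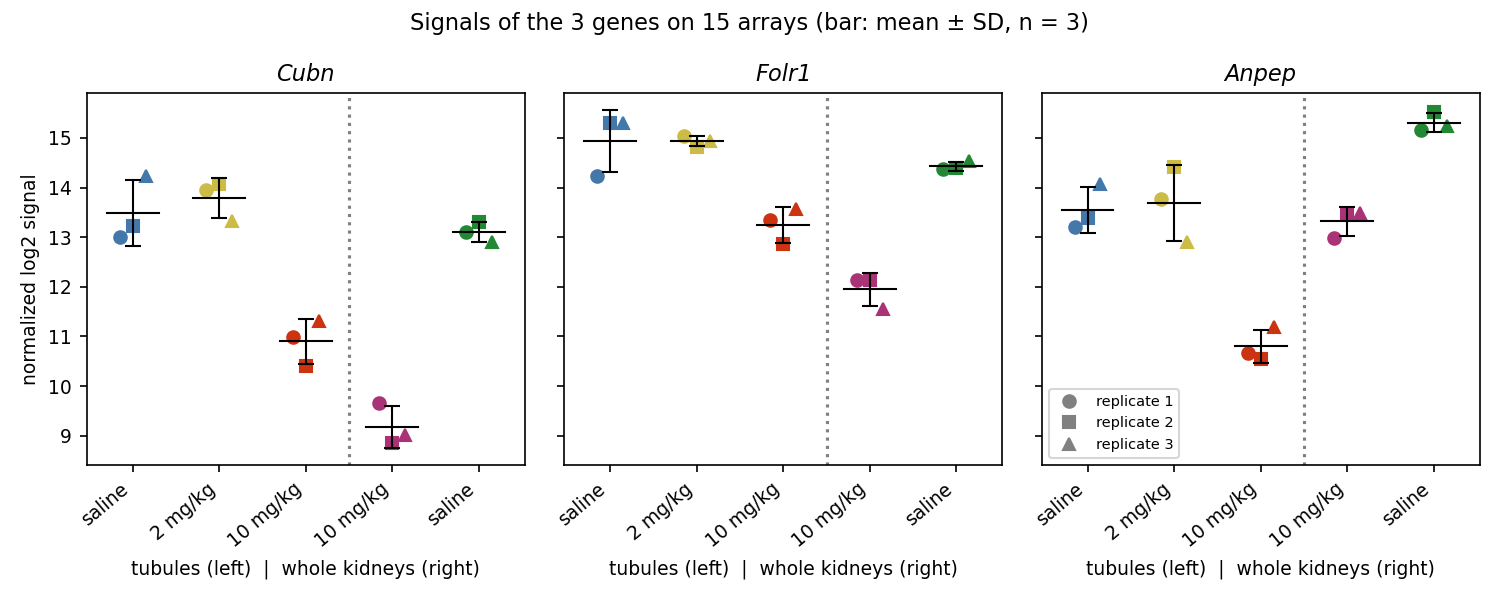
Normalized log2 signal (vertical axis) of Cubn, Folr1 and Anpep on each of 15 arrays, with tubules left and whole kidneys right of the dotted line. Points are arrays, and bars give the mean ± SD (n = 3). Cubn averaged 10.90 in 10 mg/kg tubules and 13.49 in saline tubules, and Anpep averaged 15.31 in saline kidneys, above all other groups.

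The first question was whether the 3 genes changed in tubules at 10 mg/kg. All 3 fell. Anpep fell by 2.75 ± 0.40 on the log2 scale (SE of the limma fit, adjusted p = 0.000938), which is a signal 6.74-fold lower than in saline tubules. Cubn fell by 2.58 ± 0.40 (limma adjusted p = 0.00145), 6.0-fold lower, and Folr1 by 1.69 ± 0.35 (limma adjusted p = 0.00967), 3.22-fold lower. For each gene all 3 arrays after 10 mg/kg lay below all 3 after saline, as 11.4% of all probes did. Over all 26601 probes 3.36% were called lower, and over the 401 named genes 46.6% were called lower and 10.2% higher. Over all probes 659 were called higher and 894 lower, against 341 and 737 with arrays centred on their medians and 129 and 788 with arrays left unscaled. Anpep ranked 135, Cubn 181 and Folr1 780 from the lowest of all probes. In a fit of the 6 arrays of this comparison alone, Folr1 stood at -1.68 and did not pass (limma adjusted p = 0.104).

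The sum of the normalized signals of the 15 named proximal tubule markers ran from 367739 to 490187 in 10 mg/kg tubules, against 1737740 to 2491810 in saline tubules. The limma fit called 12 of the 15 lower and 0 higher, where 46.6% of named genes and 3.36% of all probes were called lower. The sum of 5 named injury markers, among them Havcr1, the KIM-1 gene, ran from 97666 to 307929 in 10 mg/kg tubules and from 12752 to 27585 in saline tubules. The 2 named leukocyte markers, C1qa and C1qc, summed to between 10154 and 21614 in 10 mg/kg tubules and to between 4043 and 9330 in saline tubules, and 0 of the 2 passed the limma threshold. Fewer tubule cells and less RNA per cell cannot be told apart in these samples, and the part of the other cells in the falls was not tested.

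The second question was whether the lower dose moved them. At 2 mg/kg Cubn differed from saline tubules by 0.29 ± 0.40 on the log2 scale, with a 95% interval from -0.56 to 1.14. Anpep differed by 0.14 ± 0.40 (from -0.71 to 0.99) and Folr1 by -0.01 ± 0.35 (from -0.75 to 0.74). The arrays of both groups overlapped for all 3 genes, as for all but 12.1% of probes, and the limma adjusted p was 0.9999 for each. The limma fit called 0% of 26601 probes in this comparison, with 903 at an unadjusted p under 0.05, and with the authors' series table it called 23 of 1219, none of them one of the 3 genes. The intervals leave room for a fall of up to 0.75 on the log2 scale, less than the value at 10 mg/kg.

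Set against each other, the doses differed for all 3 genes. All were lower at 10 mg/kg than at 2 mg/kg, with a log2 change of -2.89 ± 0.40 for Anpep (limma adjusted p = 0.000616), -2.88 ± 0.40 for Cubn (limma adjusted p = 0.000629) and -1.68 ± 0.35 for Folr1 (limma adjusted p = 0.0091). The arrays did not overlap for any of the 3, as for 13% of all probes in this direction, and 3.77% of all probes and 50.6% of named genes were called lower. Over all probes 707 were called higher and 1004 lower, against 352 and 973 with median centring and 142 and 868 unscaled. This comparison shares the 10 mg/kg arrays with the first.

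In whole kidneys, which share no array with the tubules, the 3 genes fell too, in another order. Cubn fell by 3.93 ± 0.40 on the log2 scale (limma adjusted p = 0.000148), 15.2-fold, and ranked 16 from the lowest of all probes and 6 among the named genes. Folr1 fell by 2.49 ± 0.35 (limma adjusted p = 0.001), 5.60-fold, and Anpep by 1.99 ± 0.40 (limma adjusted p = 0.00824), 3.97-fold. Arrays of the groups overlapped for none of the 3, as for 12.7% of all probes in this direction, and 3.53% of all probes and 46.4% of named genes were called lower, with 14% of named genes higher. Over all probes 779 were called higher and 938 lower, against 107 and 249 unscaled. Anpep stood at -2.23 and did not pass when arrays were left unscaled (limma adjusted p = 0.0775). Without saline kidney replicate 3, the array least like the others, the values were -4.07 for Cubn, -2.44 for Folr1 and -2.02 for Anpep, and all 3 passed, with Anpep at a limma adjusted p of 0.0243.

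In whole kidneys the sum of the 15 proximal tubule markers ran from 316907 to 450790 after 10 mg/kg, against 941161 to 1046410 after saline. The limma fit called 9 of the 15 lower and 0 higher, where 46.4% of named genes and 3.53% of all probes were called lower. The log2 change was positive for 4 of the 15. The 5 injury markers summed to between 373892 and 563345 after 10 mg/kg and to between 44687 and 90083 after saline. C1qa and C1qc together ran from 9985 to 14639 after 10 mg/kg and from 3481 to 5226 after saline, and 0 of the 2 passed the limma threshold. Their part in the falls was not tested.

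**Figure D2:**
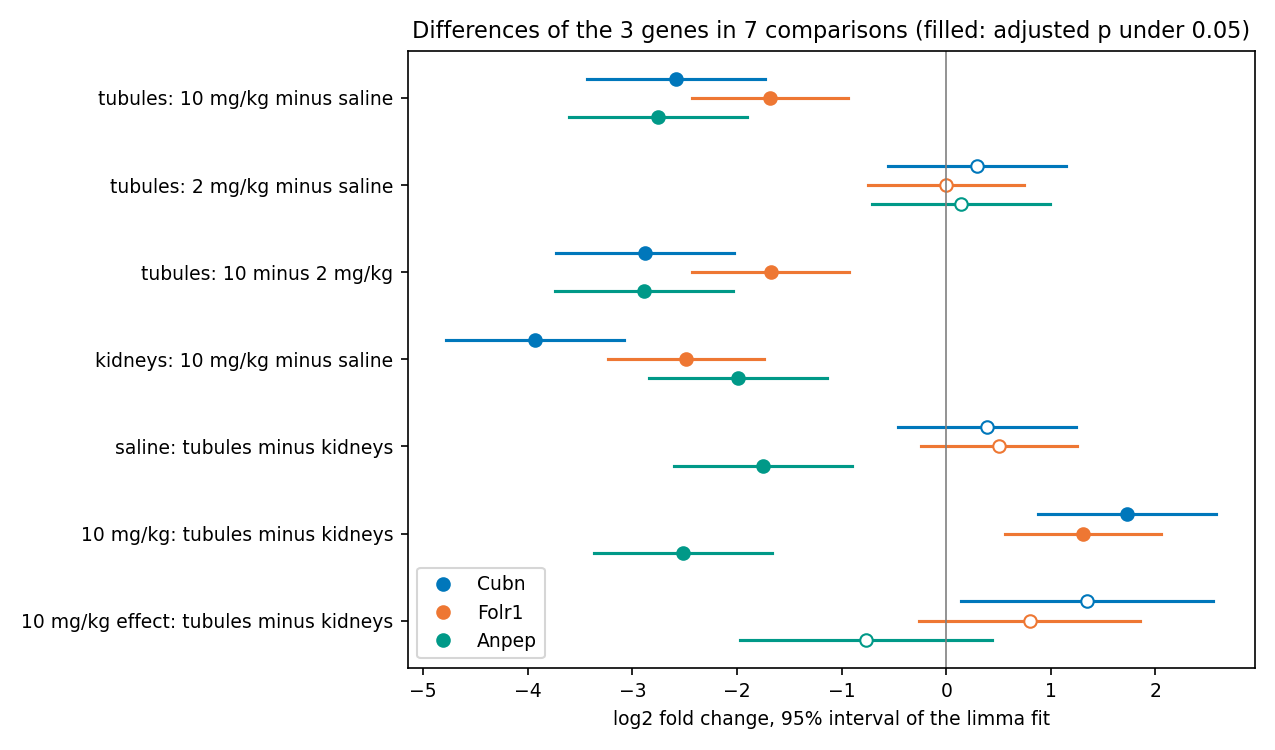
Log2 fold change (horizontal axis) of Cubn, Folr1 and Anpep in 7 comparisons (rows), with 95% intervals of the limma fit over 15 arrays. Filled points passed an adjusted p of 0.05. All 3 genes lie left of 0 wherever 10 mg/kg is set against saline or 2 mg/kg, and Anpep lies opposite to Cubn and Folr1 where tubules are set against kidneys. Of those last rows, only tubules minus kidneys after 10 mg/kg has all 3 points filled.

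The size of the 10 mg/kg effect was then compared between tubules and kidneys. The effect in tubules minus that in kidneys was 1.34 ± 0.56 on the log2 scale for Cubn (limma adjusted p = 0.405), 0.80 ± 0.49 for Folr1 (limma adjusted p = 0.604) and -0.76 ± 0.56 for Anpep (limma adjusted p = 0.675). None of the 3 passed, and only 0.0376% of all probes passed in either direction. A difference between tubules and kidneys in the fall of Cubn was therefore not established. The unadjusted p of Cubn in the limma model was 0.0311, with a 95% interval from 0.14 to 2.55.

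Isolated tubules were set against whole kidneys within each treatment. After saline Cubn differed by 0.39 ± 0.40 on the log2 scale (limma adjusted p = 0.697) and Folr1 by 0.51 ± 0.35 (limma adjusted p = 0.519), while Anpep was 3.37-fold lower in tubules, with a log2 difference of -1.75 ± 0.40 (limma adjusted p = 0.025). Arrays did not overlap for Anpep, as for 11.3% of all probes in this direction, and 1.46% of all probes and 7.98% of named genes were called lower. Over all probes 565 were called higher and 389 lower, against 558 and 239 with median centring and 1245 and 70 unscaled. The call of Anpep was weak. Anpep stood at -1.32 when arrays were centred on their medians (limma adjusted p = 0.19), at -0.69 when they were left unscaled (limma adjusted p = 0.568) and at -1.76 in a fit of the 6 saline arrays alone (limma adjusted p = 0.088). It was also lost without saline tubule replicate 1 (-1.58) or 2 (-1.66) and without saline kidney replicate 1 (-1.83), 2 (-1.65) or 3 (-1.78), at limma adjusted p between 0.0507 and 0.0899.

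After 10 mg/kg the 3 genes split. Cubn was higher in tubules than in kidneys by 1.73 ± 0.40 on the log2 scale (limma adjusted p = 0.012) and Folr1 by 1.31 ± 0.35 (limma adjusted p = 0.027), while Anpep was 5.72-fold lower in tubules, with a log2 difference of -2.52 ± 0.40 (limma adjusted p = 0.00125). Arrays did not overlap for any of the 3, as for 27.9% of all probes in either direction. Of all probes 5.85% were called higher and 4.72% lower, and of named genes 21.4% and 15.2%. The 1557 probes called higher and 1256 lower compare with 1071 and 479 under median centring and 1061 and 187 unscaled. In a fit of these 6 arrays alone neither Cubn (1.67, limma adjusted p = 0.0565) nor Folr1 (1.28, limma adjusted p = 0.0942) passed. Folr1 also did not pass when arrays were centred on their medians (1.58, limma adjusted p = 0.0559) or left unscaled (1.92, limma adjusted p = 0.0737), nor without 10 mg/kg tubule replicate 1 (1.26) or 3 (1.15) and without 10 mg/kg kidney replicate 3 (1.11). Anpep did not pass when arrays were left unscaled (-1.86, limma adjusted p = 0.096).

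Unequal change was tested on the difference of 2 genes' log2 signals within an array. A constant factor of the array drops out of such a difference when no scaling is applied. The differences given here are of quantile normalized signals, which were adjusted by rank and not by a constant. The level of such a difference has no meaning, since probes differ in brightness, but its shift between groups shows unequal change. Cubn minus Folr1 stood at -2.36, -2.44 and -2.24 in 10 mg/kg tubules, against -1.22, -2.07 and -1.06 in saline tubules. In kidneys it stood at -2.49, -3.28 and -2.55 after 10 mg/kg, against -1.27, -1.09 and -1.63 after saline. In both tissues the groups did not overlap, and Cubn fell further than Folr1. Averaged over tubules and kidneys the change of Cubn minus that of Folr1 was -1.17 on the log2 scale (exact permutation test within tissue, two-sided, p = 0.005, the smallest it can give, and 0.015 adjusted over 3 pairs). With signals left unscaled this change was -1.08 (exact permutation adjusted p = 0.015). Within 1 tissue 3 arrays against 3 cannot go below 0.1.

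Cubn and Anpep did not differ past the threshold in their fall over both tissues (-0.89 on the log2 scale for Cubn minus Anpep, exact permutation adjusted p = 0.128), and their shifts in each tissue are given because they differ in size, a difference that was not tested. In tubules Cubn minus Anpep stood at 0.32, -0.14 and 0.13 after 10 mg/kg, against -0.20, -0.16 and 0.16 after saline, and the groups overlapped. In kidneys it stood at -3.34, -4.62 and -4.47 after 10 mg/kg, against -2.05, -2.22 and -2.34 after saline, without overlap (exact permutation p = 0.1, the smallest possible). Folr1 minus Anpep shifted by 1.07 in tubules and by -0.50 in kidneys, and by 0.28 over both (exact permutation adjusted p = 0.41).

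The same differences are given between tissues as a description, since this comparison was chosen after the values were seen. Cubn minus Anpep was higher in tubules than in kidneys by 4.25 on the log2 scale after 10 mg/kg and by 2.14 after saline, and Folr1 minus Anpep by 3.82 after 10 mg/kg and by 2.26 after saline. Cubn minus Anpep ran from -0.14 to 0.32 in 10 mg/kg tubules and from -4.62 to -3.34 in 10 mg/kg kidneys, and from -0.20 to 0.16 in saline tubules and from -2.34 to -2.05 in saline kidneys. Within each treatment the tubule and kidney arrays did not overlap for this pair, while 10 mg/kg and saline tubules did. Cubn minus Folr1 differed between tubules and kidneys by 0.43 after 10 mg/kg and by -0.12 after saline.

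**Figure D3:**
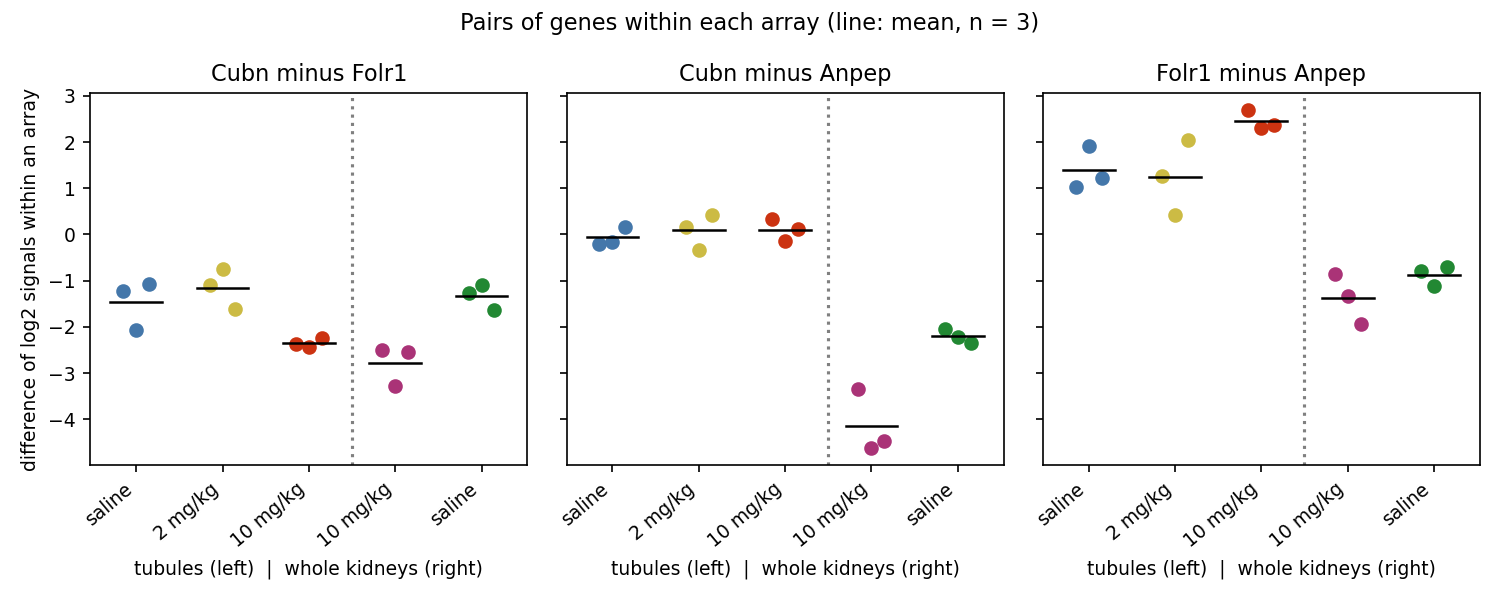
Difference of log2 signals of 2 genes within each array (vertical axis) for 3 pairs, with tubules left and whole kidneys right of the dotted line. Points are arrays and lines are means (n = 3). Cubn minus Folr1 is lower after 10 mg/kg than after saline in both tissues, and Cubn minus Anpep is lower in kidneys than in tubules.

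Partners of the 3 genes were described from lists of related genes, by counts over all probes tested. Of 47 genes of receptor-mediated endocytosis only Cubn and Lamp2, a lysosomal membrane protein gene, had a named probe. Lamp2 fell by 2.66 ± 0.34 on the log2 scale in kidneys at 10 mg/kg (limma adjusted p = 0.000678) and stood at -0.78 ± 0.34 in tubules (limma adjusted p = 0.269), where it passed in the series table (-1.06, limma adjusted p = 0.0306). It was higher in tubules than in kidneys by 2.35 ± 0.34 after saline and by 4.22 ± 0.34 after 10 mg/kg (limma adjusted p = 0.00159 and 3.49e-05). Of 15 genes for cargo of cubilin, Gc, the vitamin D binding protein gene, and Tf, the transferrin gene, were named. Gc fell by 3.78 ± 0.80 in tubules and by 3.21 ± 0.80 in kidneys at 10 mg/kg (limma adjusted p = 0.0115 and 0.0279), and Tf fell by 1.84 ± 0.46 in kidneys (limma adjusted p = 0.0275) and stood at 0.45 ± 0.46 in tubules. Neither passed in kidneys when any 1 of the 6 kidney arrays was left out, with values from -3.42 to -2.90 for Gc and from -1.92 to -1.78 for Tf, and Gc in tubules did not pass without 10 mg/kg tubule replicate 1 (-3.39) or with the 6 arrays alone (-3.91). Tf in kidneys also did not pass with median centring (-1.93), unscaled (-2.03) or with array weights (-1.81). Of 15 cobalamin genes Cubn alone was named.

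Folate uptake and one-carbon metabolism had 7 named genes beside Folr1, with a median log2 change of -1.81 in tubules and -2.04 in kidneys at 10 mg/kg. Over all named genes the medians were -1.28 and -1.24, and over all probes 0.03 and 0.02. In tubules 5 of the 7 fell and 0 rose, where 46.6% of all named genes and 3.36% of all probes fell. Among them were Psat1, an enzyme of serine synthesis (-2.57 ± 0.35), Ftcd, which passes a carbon unit from histidine breakdown to folate (-3.07 ± 0.46), the dimethylglycine dehydrogenase gene Dmgdh (-1.81 ± 0.35) and the folate enzyme gene Mthfd1 (-1.42 ± 0.29). In kidneys 5 of the 7 fell and 0 rose, where 46.4% of named genes fell, with Psat1 at -2.64 ± 0.35, the S-adenosylmethionine synthetase gene Mat2a at -2.62 ± 0.35, Dmgdh at -2.04 ± 0.35 and the cystathionine synthase gene Cbs at -3.09 ± 0.58. Mthfd1 and Dmgdh in tubules did not pass in a fit of the 6 arrays alone (limma adjusted p = 0.0813 and 0.0692), nor Mthfd1 in tubules and Dmgdh in kidneys with arrays left unscaled (limma adjusted p = 0.0552 and 0.0875). At 2 mg/kg 0 of the 7 were called, where 0% of all probes were called.

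Peptidases and other hydrolases had 8 named genes beside Anpep, with a median log2 change of -1.86 in tubules and -2.06 in kidneys at 10 mg/kg. Several of them act inside the cell and not at the brush border: Cpq encodes a lysosomal carboxypeptidase, and Pepd, which splits dipeptides that end in proline, and the aminoacylase Acy1 act in the cytosol. In tubules 5 of the 8 fell and 0 rose, against 46.6% of named genes and 3.36% of all probes that fell, with Cpq at -3.10 ± 0.31, Pepd at -2.29 ± 0.27, Acy1 at -1.98 ± 0.40 and the ecto-nucleotidase gene Nt5e at -1.73 ± 0.40. Nt5e did not pass without saline tubule replicate 2 (-1.40) or 3 (-1.76) or 10 mg/kg tubule replicate 1 (-1.72) or 3 (-1.52), nor Nt5e and Acy1 in a fit of the 6 arrays alone (limma adjusted p = 0.095 and 0.0703). In kidneys 7 of the 8 fell and 0 rose, against 46.4% of named genes that fell, with the ecto-phosphodiesterase gene Enpp3 at -2.25 ± 0.34, Cpq at -1.95 ± 0.31, Nt5e at -2.16 ± 0.40 and Enpp1 at -1.65 ± 0.33. With arrays left unscaled Cpq, Nt5e and Enpp1 did not pass in kidneys (limma adjusted p = 0.0804, 0.0902 and 0.327), and Nt5e and Enpp1 did not pass in a fit of the 6 arrays alone (0.0508 and 0.0779), nor Enpp1 with median centring (0.118). At 2 mg/kg 0 of the 8 were called, where 0% of all probes were called. Like Anpep, Enpp3 (-1.98 ± 0.34), Acy1 (-1.62 ± 0.40) and the carnosine dipeptidase gene Cndp1 (-2.67 ± 0.67) were lower in saline tubules than in saline kidneys, 3 of the 8, against 7.98% of named genes, and 0 were higher. These calls were weak. Enpp3 stood at -1.56 with median centring (limma adjusted p = 0.0926), at -0.93 unscaled (limma adjusted p = 0.42) and at -2.01 in a fit of the 6 saline arrays alone (limma adjusted p = 0.071). Acy1 did not pass under the same 3 settings (-1.17, -0.54 and -1.57) or in the series table (-1.16), and Cndp1 did not pass unscaled (-1.73) or with the 6 arrays alone (-2.67). Acy1 also did not pass when any 1 of the 6 saline arrays was left out, with values from -1.81 to -1.45, nor Cndp1 when any but saline tubule replicate 1 was, with values from -2.81 to -2.23.

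The list for uptake of amino acids and small peptides had 10 named genes, with a median log2 change of -2.21 in tubules and -2.30 in kidneys at 10 mg/kg. Its peptide carrier genes, Slc15a1 and Slc15a2, had no named probe. Not all of the named carriers lie at the brush border, and whether they take up what such peptidases release was not tested. In tubules 8 of the 10 fell and 0 rose, against 46.6% of named genes and 3.36% of all probes that fell and 10.2% of named genes that rose, with Slc6a13 at -2.93 ± 0.38, the glutamate carrier gene Slc1a1 at -2.60 ± 0.34, Slc6a18, a carrier of neutral amino acids, at -2.89 ± 0.46, and Slc3a1, a subunit of the cystine carrier, at -2.15 ± 0.37. In kidneys 8 fell and 1 rose, against 46.4% and 14% of named genes. Those that fell included Slc7a12 (-5.27 ± 0.59), Slc6a13 (-4.13 ± 0.38), Slc3a1 (-3.32 ± 0.37) and Slc7a9, the partner of Slc3a1 (-3.15 ± 0.34), and the one that rose was Slc16a10, an aromatic amino acid carrier (2.07 ± 0.49), named after its value was seen, which did not pass without saline kidney replicate 3 (1.71) or 10 mg/kg kidney replicate 1 (1.90), with median centring (1.80), unscaled (1.69) or with the 6 arrays alone (1.78). Slc3a1 in tubules did not pass with the 6 arrays alone (-2.12, limma adjusted p = 0.0568). At 2 mg/kg 0 of the 10 were called, where 0% of all probes were called.

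The list for the scaffold and microvilli of the brush border had 7 named members: Actn4, Add3, Epb41l3, Espn, Pdzk1, Slc34a1 and Slc9a3. Slc34a1 and Slc9a3 encode carriers and not scaffold proteins, and Slc34a1 is also among the 15 proximal tubule markers. At 10 mg/kg 4 of the 7 fell in tubules and 2 in kidneys, and 0 rose. These shares are near or below the 46.6% and 46.4% of all named genes that fell. Pdzk1, which encodes a scaffold protein of apical carriers, fell in both, by 1.72 ± 0.27 in tubules and by 1.26 ± 0.27 in kidneys (limma adjusted p = 0.00172 and 0.013). The kidney value of Pdzk1 did not pass with median centring (-1.38, limma adjusted p = 0.154), unscaled (-1.49, limma adjusted p = 0.375) or with the 6 arrays alone (-1.24, limma adjusted p = 0.0799), nor did the tubule value with the 6 arrays alone (-1.71, limma adjusted p = 0.0519). The list of transcription factors of the proximal tubule had 4 named genes: Hnf4a, Klf15, Maf and Nr3c1, the glucocorticoid receptor gene. Of these 2 fell in tubules and 3, among them Nr3c1, in kidneys, beside the same shares of named genes. Klf15 fell by 2.07 ± 0.31 in tubules and by 2.78 ± 0.31 in kidneys. Hnf4a fell by 3.43 ± 0.93 in kidneys (limma adjusted p = 0.0415) and stood at -2.81 ± 0.93 in tubules (limma adjusted p = 0.107), and Hnf4a in kidneys did not pass when any 1 of the 6 kidney arrays was left out, with values from -3.71 to -3.21, nor with median centring (-3.10) or cyclic loess (-2.98), while in tubules it passed unscaled (-3.26), in the series table (-2.89) and with a trended, robust prior (-2.81). Maf fell by 3.31 ± 0.54 in tubules and stood at -0.33 ± 0.54 in kidneys.

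**Figure D4:**
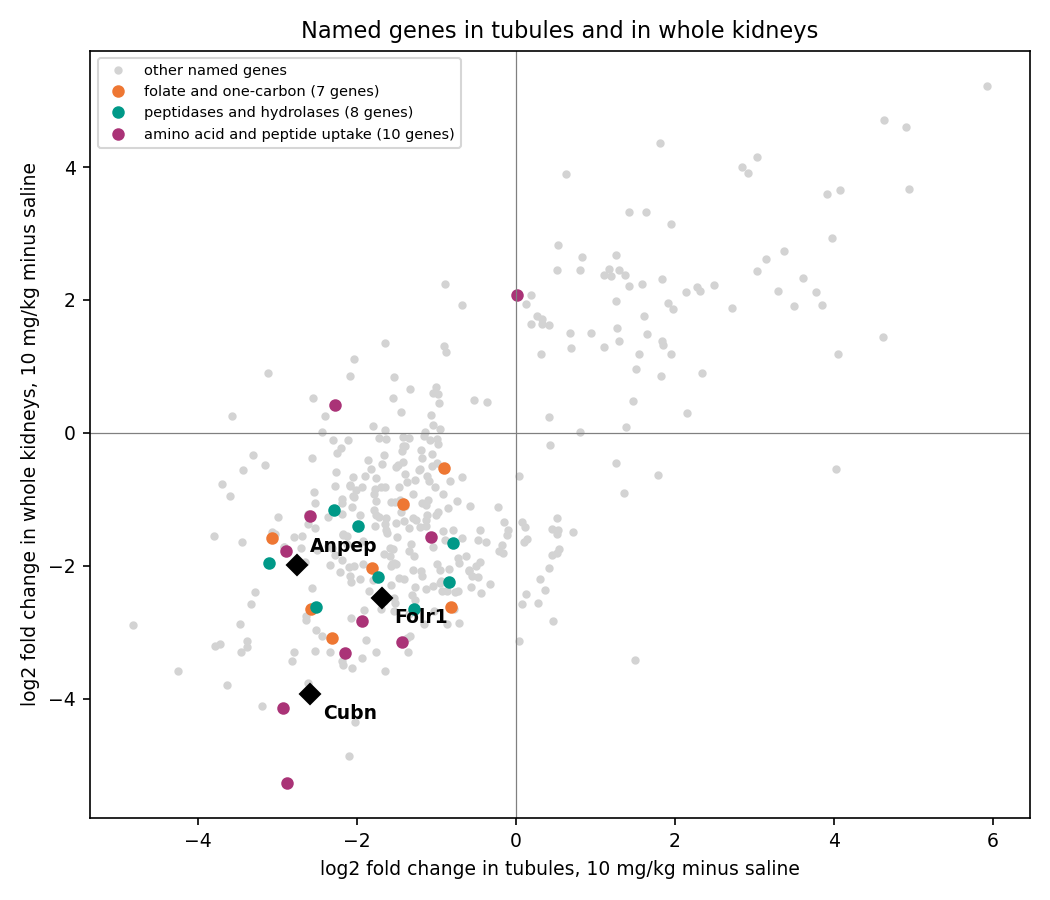
Log2 fold change at 10 mg/kg against saline in tubules (horizontal axis) and whole kidneys (vertical axis) for 401 named genes. Coloured points are 3 lists without the 3 genes described, and diamonds mark these. Cubn lies at -2.58 and -3.93, Folr1 at -1.69 and -2.49, and Anpep at -2.75 and -1.99, and few named genes lie near 0 on the horizontal axis.

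The named genes with the most similar pattern were ranked by Pearson correlation of log2 signals over the 15 arrays, as a description with no test, among 397 others with all values. Cubn was most like Ak4, an adenylate kinase gene (r = 0.976), Pyroxd2 (0.975), Folr1 (0.973), the N-cadherin gene Cdh2 (0.969) and Klf15 (0.966). Folr1 was most like Cubn (0.973), then Ak4 (0.969), Exoc6 (0.967), Galm (0.960) and Pyroxd2 (0.960). Both receptors thus shared 2 of their nearest genes beside each other. Anpep was most like Ppargc1b, a transcriptional coactivator gene (0.973), Acy1 (0.969), Slc6a18 (0.963), Sil1 (0.954) and Cd82 (0.947), none of which was among the nearest of the receptors.

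These correlations mostly reflect differences between the 5 groups, which the arrays share, and within groups they were lower for most pairs. With group means removed Cubn and Folr1 correlated at 0.557, Cubn and Anpep at 0.631 and Folr1 and Anpep at 0.251, and Anpep and Acy1 at 0.901. Without removing them Cubn and Anpep correlated at 0.472 and Folr1 and Anpep at 0.389, and Anpep ranked 259 of 397 for Cubn. The median correlation with the named genes was 0.695 for Cubn, 0.676 for Folr1 and 0.356 for Anpep, and with all 22385 probes that had all values it lay between -0.02 and -0.01.

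The genes nearest to Anpep shared its low level in tubules in part. After 10 mg/kg Slc6a18 (-2.97 ± 0.46), Acy1 (-2.21 ± 0.40), Sil1 (-2.01 ± 0.37) and Ppargc1b (-1.34 ± 0.35) were lower in tubules than in kidneys on the log2 scale and Cd82 stood at -0.74 ± 0.29 (limma adjusted p = 0.129). Among the genes nearest to the receptors Ak4 (1.48 ± 0.33), Cdh2 (1.54 ± 0.35) and Exoc6 (1.30 ± 0.32) were higher in tubules. Ppargc1b did not pass without 10 mg/kg tubule replicate 1, 2 or 3 or 10 mg/kg kidney replicate 3 (-1.35 to -1.18), Exoc6 without 10 mg/kg tubule or kidney replicate 1 (both 1.15) and Cdh2 without 10 mg/kg kidney replicate 3 (1.30). Ppargc1b also did not pass with median centring (-1.03), unscaled (-0.69), in the series table (-1.03) or with the 6 arrays alone (-1.35). Unscaled, Acy1 (-1.60), Sil1 (-1.33), Cdh2 (1.99) and Exoc6 (1.84) did not pass, nor Exoc6 with median centring, nor Ak4 (1.48), Cdh2 (1.43) and Exoc6 (1.27) with the 6 arrays alone. Pyroxd2, Klf15 and Galm stood between 0.63 and 1.40 without passing the threshold in limma, though Pyroxd2 passed under several alternatives, among them the series table (1.35). This follows from the ranking, which used these arrays, and supports nothing further.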

How the data were processed

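Each of the 15 deposited array files gives a single linear intensity for every listed probe. RNA was extracted and cRNA labelled as the labels' protocols state, and no label or header says which scanner software was used or whether background or spots were corrected or filtered. The authors' deposited series table holds 1219 probes as a ratio of that signal to 1 constant per array. The files list 26857 probes, and annotation was available for probes of that table: 401 probes carried 1 symbol, and another 2 with several symbols are left unnamed.

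The log2 signals were quantile normalized with limma 3.58.1 in R 4.3.3, with no background correction or filter on dim probes, since no background or detection column is present. A model with 1 mean per group and all 15 arrays was fitted to the 26601 probes that had 2 or more values in every group. For each of 7 contrasts the moderated test of eBayes was two-sided, its p-values were adjusted by Benjamini and Hochberg over these probes, and the threshold was 0.05. Differences of 2 genes within an array were tested by exact permutation. The number of arrays limits the precision. No label says that the arrays of a group came from separate animals, so a p-value speaks only of the spread among arrays, which may be technical. The fit was tested on simulated data.

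The genes, the lists and the design were chosen with earlier results of these data known. Besides the 3 genes, the text names the 5 genes most correlated with each and up to 4 genes of smallest adjusted p per list and comparison. Same-numbered arrays were not paired: of 30 pairs of same-numbered arrays 1 had deviations correlated above 0.1. Alternatives were other scalings, the series table, fewer arrays, array weights, a replicate block, a filter on dim probes, another prior and leaving out each array. No slide or scan date was in the files, so that alternative was not run.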

Additional observations from a re-analysis of the deposited data

How the results depend on the processing

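Of 333 values of the 3 genes under alternatives, 315 kept their side of the threshold, 18 lost the limma call with the same direction, and 0 called values reversed. At 2 mg/kg, where none was called, the sign varied for Folr1 and Anpep, while Cubn stayed positive. For 10 mg/kg against saline or 2 mg/kg, 2 calls were lost: Folr1 in tubules (-1.68, with only the arrays compared) and Anpep in kidneys (-2.23, without scaling). All other losses were between tubules and kidneys. After saline, Anpep stood at -1.32 with median centring, -0.69 without scaling and -1.76 with only the arrays compared, and leaving out 1 array gave -2.02 to -1.58. After 10 mg/kg, Folr1 stood at 1.58, 1.92 and 1.28 under the same 3 settings and at 1.11 to 1.51 on leaving out 1 array, Cubn at 1.67 with only the arrays compared, and Anpep at -1.86 without scaling. The causes were not tested, except that fits of only the arrays compared hold fewer samples. Over both tissues, the change of Cubn minus that of Folr1 lay between -1.32 and -1.04 on leaving out 1 array (exact permutation adjusted p 0.015 to 0.03); within 1 tissue the exact test cannot pass, so its p says nothing of stability. For the 36 other genes with values in the text, 736 of 840 values kept their side of the threshold, 93 lost it, 11 gained it and 0 called values reversed. Counts of probes called moved more. In tubules at 10 mg/kg against saline, 1553 were called, against 917 without scaling, 967 of the 1219 in the series table, 592 with only the arrays compared and 995 to 1193 on leaving out 1 array. At 2 mg/kg the count was 0, 23 with the series table and 0 to 1 on leaving out 1 array. Between the doses it was 1711, against 1010 without scaling, 956 with the series table, 998 with only the arrays compared, 3085 with array weights and 962 to 1481 on leaving out 1 array. In kidneys it was 1717, against 675 with median centring, 356 without scaling, 749 with the series table, 672 with only the arrays compared, 2628 with a trended, robust prior and 1170 to 1384 on leaving out 1 array. For saline tubules against saline kidneys it was 954, against 406 with the series table, 265 with only the arrays compared, 1643 with the trended prior and 572 to 792 on leaving out 1 array. For tubules against kidneys after 10 mg/kg it was 2813, against 1550 with median centring, 1248 without scaling, 450 with the series table, 1217 with only the arrays compared and 1813 to 2469 on leaving out 1 array. For the difference of the 10 mg/kg effects it was 10, against 2 with median centring, 2 without scaling, 176 with the series table, 0 with only the arrays compared, 17 with array weights, 29 without the dimmest 0.25 of probes, 305 with the trended prior and 0 to 15 on leaving out 1 array. With the replicate number as a block it was 0, and the block changed no call of the 3 genes, while Hnf4a in kidneys (-3.43) and Acy1 (-1.62) and Cndp1 (-2.67) in saline tubules against saline kidneys did not pass with it. Of 15 arrays 3 correlated best with an array of their own number. Without scaling the median of all probes shifted by -0.32 in tubules at 10 mg/kg and by 0.61 for saline tubules against saline kidneys. No background was measured, so how far dim signals limit these folds is unknown.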
